A study of Mus musculus with 15 samples.

Results

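The complement genes described here were adipsin (Cfd), C3, Cfb, properdin (Cfp), C2, C4b, C6 and C7. They were taken from a raw count table of perivascular fat as the rows whose Ensembl identifier maps to these symbols. All 8 were found among the 43352 genes of the table, and all 8 had counts high enough to be tested. C1q genes were left out of the 8 and are given below with the other complement genes.

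The study sequenced poly(A) RNA of perivascular adipose tissue, the fat that surrounds the aorta, in mice aged 11 weeks, in the chest (tPVAT, which resembles brown fat) and in the abdomen (aPVAT, which is closer to white fat). Control mice were labelled Prdm16flox, meaning that they carried Prdm16 alleles flanked by loxP sites. The cKO mice were labelled Prdm16flox, AdipoQCre+: they carried the same floxed alleles and Cre recombinase under control of Adipoq regulatory DNA, which is active in adipocytes. The 4 groups were tPVAT control (4 libraries), tPVAT cKO (4), aPVAT control (4) and aPVAT cKO (3, numbered 1, 3 and 4). Whole tissue was used, in which cells without Adipoq activity are not targeted. Nothing in the labels states that samples within a group came from separate animals, and p-values therefore measure the spread between these samples, which may be technical.

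Complement is a set of plasma and tissue proteins that coat targets with fragments of C3 and can end in a pore through the target membrane. In the alternative pathway, factor B (Cfb) binds to activated C3 and is cut there by factor D (Cfd, adipsin), a serine protease secreted in bulk by adipocytes, and properdin (Cfp) stabilises the enzyme that results. In the classical and lectin pathways, C4 and C2 form the enzyme that cuts C3. The terminal proteins, C6 and C7 among them, join C5b to build the pore. Most plasma complement comes from the liver, while adipose tissue is the main source of adipsin.

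Cfd (ENSMUSG00000061780) lies on chromosome 10 (79890853 to 79892655, plus strand, GRCm38), and C6 (ENSMUSG00000022181) and C7 (ENSMUSG00000079105) lie near each other on chromosome 15 (4727175 to 4814967, plus strand, and 4988762 to 5063740, minus strand), 173794 bases apart. C3, Cfb, C2 and C4b lie on chromosome 17 and Cfp on chromosome X. The sequences before the start of these genes are shown because Cfd carried the genotype difference and C6 and C7 the 2 largest differences between depots. They are RefSeq sequences of GRCm38.p6, 5′ to 3′ on the strand of the gene, and RefSeq entries were matched for 5 of the 8 genes (Cfd, C3, C6, C7 and Cfp). The windows are chr10:79890603-79890852 for Cfd, chr15:4726960-4727174 for C6 and chr15:5063774-5064023 for C7. That of C6 was ended before the first base of the gene in GENCODE M21, which left out 35 bases. Capitals mark motif matches.
Cfd: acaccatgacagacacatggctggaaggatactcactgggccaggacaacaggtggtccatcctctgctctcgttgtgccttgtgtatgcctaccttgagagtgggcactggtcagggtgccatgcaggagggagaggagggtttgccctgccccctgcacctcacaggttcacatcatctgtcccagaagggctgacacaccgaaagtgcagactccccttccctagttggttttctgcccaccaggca
C6: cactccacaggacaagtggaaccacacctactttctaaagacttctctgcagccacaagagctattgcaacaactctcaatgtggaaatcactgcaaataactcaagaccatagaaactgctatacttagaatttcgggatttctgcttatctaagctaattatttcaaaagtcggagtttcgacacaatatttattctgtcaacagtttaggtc
C7: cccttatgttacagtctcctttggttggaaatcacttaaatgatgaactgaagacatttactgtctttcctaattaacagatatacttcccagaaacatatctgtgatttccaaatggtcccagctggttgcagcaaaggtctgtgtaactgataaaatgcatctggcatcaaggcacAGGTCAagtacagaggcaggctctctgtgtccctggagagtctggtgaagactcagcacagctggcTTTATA
The windows of 250 bases before the RefSeq start were searched on both strands for 5 short motifs; no printed match overlaps another. The TATA motif TATAAA occurred in 12.4% of the 32851 windows of this length, and the box CCAAT in 33.8%. A form of the C/EBP motif, TTNNGCAA, occurred in 9.56%. The core site of many nuclear receptors, AGGTCA, occurred in 14%, and the E box CACGTG in 6.02%. The window of Cfd held no match to these letters, and neither did that of Cfp. That of C7 held AGGTCA at 67 to 72 bases before the start, and the TATA motif on the other strand in its last 6 bases. The nuclear receptor letters were also found for C6 at 35 to 40 bases before the RefSeq start, where their last base is the first base of the GENCODE gene, and for C3 at 238 to 243 bases. C3 held in addition a C/EBP match on the other strand at 38 to 45 bases. These matches are letters in a window and describe no binding.

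Values are read counts scaled to the TMM-adjusted library size (CPM), and differences are log2 differences of the edgeR quasi-likelihood model with their standard error (SE) and a p adjusted over 19645 genes (threshold 0.05). Total counts were 37.8 M to 68.7 M per library, with the smallest in aPVAT cKO 4. Genes of the mitochondrial genome took 33.37 to 36.36% of counts in tPVAT controls, 26.49 to 31.64% in tPVAT cKO and 13.03 to 15.99% in the 7 aPVAT libraries. Prdm16, counted over the whole gene, was lower in cKO in tPVAT (47.3 against 22.4 CPM; log2 difference −1.08, adjusted p = 2.22e-06) and in aPVAT (23.7 against 16.1 CPM; −0.57, adjusted p = 0.00992). In aPVAT this call did not hold when aPVAT cKO 1 was left out (adjusted p = 0.0692), when aPVAT cKO 3 was (0.0591), or when tPVAT libraries were (0.0739).

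Of the 8 genes, Cfd alone was called higher in tPVAT with Prdm16 deletion, beside 5.44% of all genes. In aPVAT C4b alone was called lower, beside 0.789% of all genes. Between depots the picture was broader. All 8 were called higher in aPVAT than in tPVAT of controls, from 1.3-fold for C3 to 64.4-fold for C6. Of all genes 29.3% were called higher there. In cKO 6 of the 8 were called higher in aPVAT, beside 27.2% of all genes, and Cfb and C4b missed the threshold.

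The alternative pathway was compared starting with its protease. Cfd stood at 1787, 2312, 1712 and 1889 CPM in tPVAT controls 1 to 4 and at 4411, 5235, 4497 and 4205 CPM in tPVAT cKO 1 to 4. In aPVAT it stood at 7681, 7056, 6724 and 7496 CPM in controls 1 to 4 and at 8938, 8531 and 10159 CPM in cKO 1, 3 and 4. The 4 groups did not overlap: every tPVAT cKO library lay above every tPVAT control, every aPVAT control above every tPVAT cKO, and every aPVAT cKO above every aPVAT control.

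In tPVAT, Cfd rose from 1925 ± 268 to 4587 ± 449 CPM with the deletion (mean ± SD, n = 4 and 4), which is 2.38-fold (log2 difference 1.25, SE 0.103, adjusted p = 8.78e-07). It ranked 56 of 19645 genes by p in this comparison. Among all genes 5.44% were called higher and 6.61% lower in tPVAT cKO, and of the 8 complement genes 1 was higher and 0 lower. Their median log2 difference was −0.02, beside −0.01 for all genes.

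In aPVAT, Cfd was at 7239 ± 432 CPM in controls (n = 4) and 9210 ± 847 CPM in cKO (n = 3). The difference of 0.35 (SE 0.109, 95% interval 0.12 to 0.58) missed the threshold (adjusted p = 0.165). The libraries of the 2 groups did not overlap. For this and the other statements of no overlap, the share of all genes was not counted. DESeq2 put the aPVAT difference under the threshold (adjusted p = 0.0456). Leaving out aPVAT control 2 and aPVAT cKO 4, which are rich in structural RNA, gave 0.26 in edgeR (adjusted p = 0.27). The difference between the effects in the 2 depots was called: the aPVAT effect minus the tPVAT effect was −0.91 (SE 0.151, adjusted p = 0.00622), and Cfd ranked 65 of 19645 genes by p. It was the only one of the 8 called in that test, with 0.626% of all genes called lower. With an unadjusted p under 0.05 (edgeR) 4 of the 8 were lower, beside 8.85% of all genes in either direction.

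Between depots Cfd was 3.76-fold higher in aPVAT of controls (1.91, SE 0.105, adjusted p = 5.99e-10) and 2.01-fold higher in aPVAT of cKO (1.01, SE 0.109, adjusted p = 1.62e-06). The depot comparison in controls and the genotype comparison in tPVAT share the tPVAT control libraries. tPVAT cKO remained below aPVAT control (−0.66, SE 0.102, adjusted p = 4.84e-05). The order of levels was thus tPVAT control, tPVAT cKO, aPVAT control and aPVAT cKO, in which the last step alone was not called.

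Cfd was among the most abundant transcripts of this fat. Per kb of exon it stood at 2088 ± 291 CPM in tPVAT controls, 4975 ± 487 in tPVAT cKO, 7852 ± 468 in aPVAT controls and 9989 ± 919 in aPVAT cKO. By this level it ranked 13, 8, 1 and 2 in these groups among 42431 genes outside the mitochondrial genome. Adipoq, the adipocyte hormone adiponectin, ranked 49, 33, 21 and 20.

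Markers of several cell types moved in tPVAT as well. The summed level of 10 adipocyte markers was 15684 to 17202 CPM in tPVAT controls and 19405 to 21368 CPM in tPVAT cKO, and 4 of the 10 were called higher there. Fabp4 was the largest part of this sum (means of 6980 and 9016 CPM). Pparg (206 and 199 CPM) and Pnpla2 (2379 and 2181 CPM) alone had lower means in tPVAT cKO. Among the markers with higher means was Retn (75 and 300 CPM), which was at 492 and 735 CPM in aPVAT controls and cKO. The sum of thermogenic adipocyte markers (7 genes) went the other way, from 8751 to 9481 CPM in tPVAT controls to 5547 to 6770 CPM in tPVAT cKO, with 2 of 7 called lower. Ucp1 was the largest part (6257 and 4059 CPM), and Elovl3 alone had a higher mean in tPVAT cKO (180 and 194 CPM). Endothelial markers (5 genes) summed to 736 to 829 CPM in tPVAT controls, while the cKO libraries lay at 651 to 669 CPM, with 3 of 5 called lower. Smooth muscle markers summed to 2029 to 2671 CPM in tPVAT controls and 1729 to 1928 CPM in tPVAT cKO. Of these 5 genes 1 was called lower. The part of these cell types in the rise of Cfd was not tested. Adipoq itself was at 836 CPM in tPVAT controls and 1115 CPM in tPVAT cKO. Cfd per Adipoq was 2.29 ± 0.225 in tPVAT controls (range 2.12 to 2.62) and 4.11 ± 0.251 in tPVAT cKO (3.75 to 4.3), so that the groups did not overlap on this ratio either. In aPVAT it was 4.62 ± 0.329 in controls and 5.95 ± 0.374 in cKO, while the summed markers overlapped (15823 to 18335 and 16474 to 20556 CPM). In whole tissue, fewer cells of a type and less RNA per cell cannot be told apart.

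**Figure D1:**
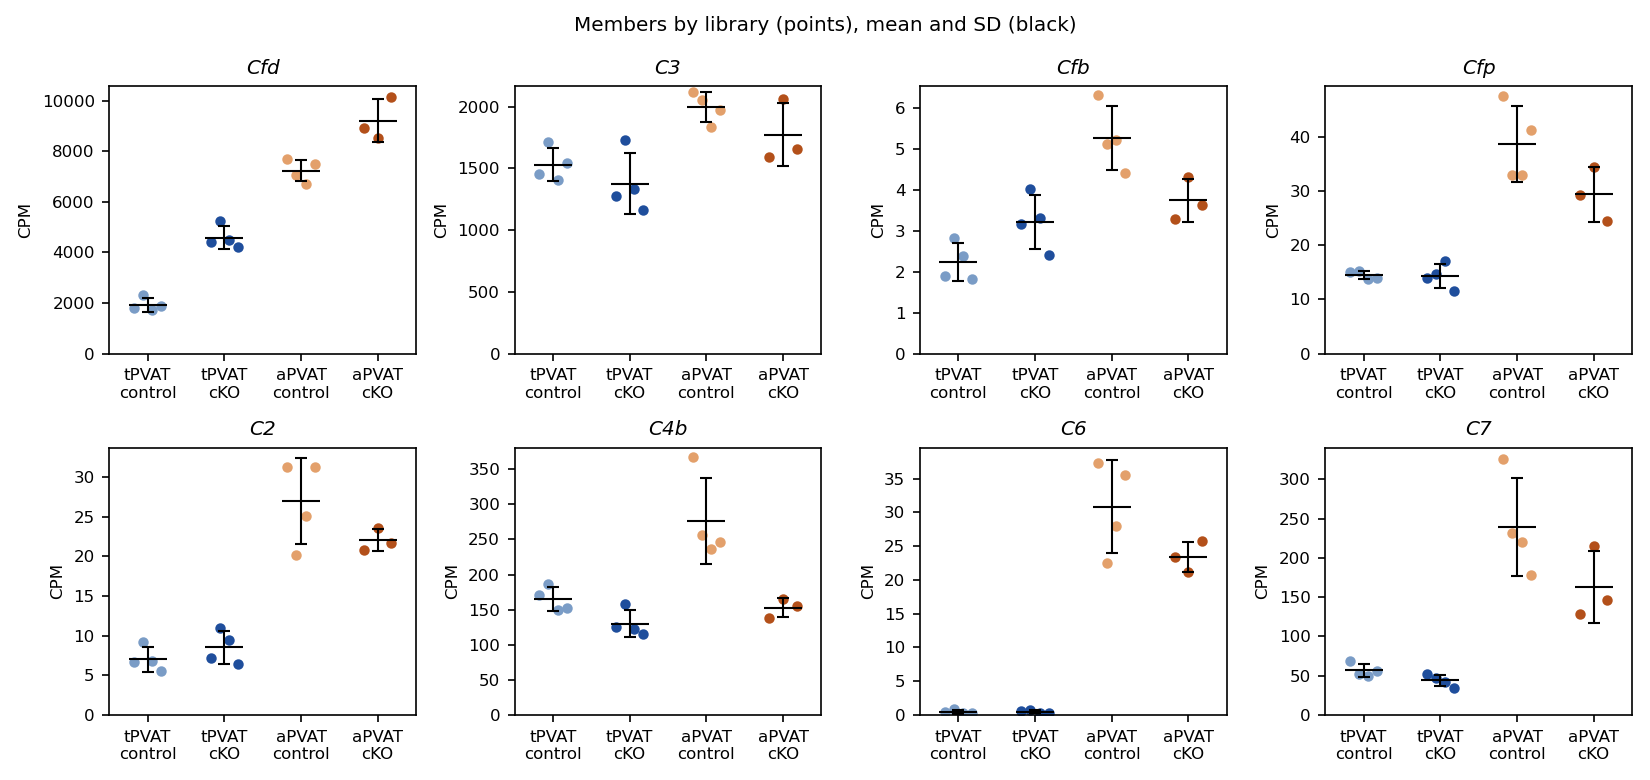
CPM (linear axis from 0, a separate scale for each gene) of the 8 complement genes in the 15 libraries. Points are libraries, the long bar is the group mean and the whiskers are 1 SD (n = 4, 4, 4 and 3). Cfd climbs through the 4 groups without overlap, whereas the other 7 are highest in aPVAT controls.

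C3, the protein on which all pathways converge, was abundant, and no genotype difference was called for it. It stood at 1454, 1713, 1404 and 1546 CPM in tPVAT controls and at 1279, 1729, 1331 and 1163 CPM in tPVAT cKO. In aPVAT the controls were at 2115, 2056, 1832 and 1974 CPM and the cKO at 1591, 2064 and 1657 CPM. Libraries of the 2 genotypes overlapped in both depots. The genotype difference was −0.15 in tPVAT (95% interval −0.40 to 0.09, adjusted p = 0.443) and −0.17 in aPVAT (−0.44 to 0.10, adjusted p = 0.612).

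Between depots C3 was 1.3-fold higher in aPVAT of controls (0.38, SE 0.116, adjusted p = 0.0106), the smallest depot difference of the 8. In cKO it was 1.29-fold higher (0.36, SE 0.125, adjusted p = 0.0227), with overlapping libraries. The call in cKO ended when aPVAT cKO 3 was left out (0.24, adjusted p = 0.15), without tPVAT cKO 1, 3 or 4 (adjusted p = 0.0594, 0.0511 and 0.072) and with only the cKO libraries in the fit (0.0554). Cfd per C3 went from 1.25 ± 0.0635 in tPVAT controls to 3.37 ± 0.248 in tPVAT cKO, and was 3.63 ± 0.151 in aPVAT controls and 5.29 ± 1.04 in aPVAT cKO. The protease transcript therefore rose against that of C3 in tPVAT.

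Cfb, the substrate of adipsin, was scarce. It stood at 1.9, 2.83, 2.39 and 1.83 CPM in tPVAT controls and at 3.16, 4.02, 3.3 and 2.4 CPM in tPVAT cKO. In aPVAT it stood at 6.31, 5.13, 5.22 and 4.41 CPM in controls and at 3.28, 4.32 and 3.62 CPM in cKO. In tPVAT 3 of the 4 cKO libraries lay above all controls, and the 3 aPVAT cKO libraries lay below all 4 of theirs. Neither difference passed (tPVAT 0.52, SE 0.178, adjusted p = 0.0684, and aPVAT −0.49, SE 0.182, adjusted p = 0.252), nor did the difference between them (−1.02, SE 0.254, adjusted p = 0.0914).

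These 2 Cfb values lay close to the threshold. The tPVAT difference passed with DESeq2 (adjusted p = 0.0349), with limma voom and library weights (0.0418), and without tPVAT control 2, tPVAT cKO 4 or aPVAT control 1 (0.036, 0.0291 and 0.0487). The interaction passed with DESeq2 (0.0107) and without tPVAT control 2 or tPVAT cKO 4 (0.0459 and 0.0447). Between depots Cfb was 2.35-fold higher in aPVAT of controls (1.23, SE 0.175, adjusted p = 1.96e-05) and not called in cKO (0.21, 95% interval −0.18 to 0.60, adjusted p = 0.345).

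Counts of Cfb and C2 carry a limit of the annotation. Gm20547, a read-through gene on the same strand, shares 2246 of the 2825 exonic bases of Cfb (79.5%) and 1656 of the 3872 of C2 (42.8%), and it reached at most 0.0214 CPM. How reads in shared exons were counted is not given in the sources used here, so the levels of both genes may be too low. Per kb of exon Cfb was at 0.792 to 1.87 CPM in the 4 group means, and per kb of unshared exon at 3.86 to 9.1 CPM. On either scale its mean was far below that of Cfd and C3.

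Cfp, properdin, is made mainly by myeloid cells. It stood at 15.1, 15.2, 13.7 and 14 CPM in tPVAT controls and at 13.9, 14.6, 17.1 and 11.6 CPM in tPVAT cKO. In aPVAT it stood at 47.6, 33, 33 and 41.2 CPM in controls and at 29.3, 34.4 and 24.4 CPM in cKO. The depots did not overlap, and the genotypes overlapped within each depot. Cfp was 2.67-fold higher in aPVAT of controls (1.42, SE 0.138, adjusted p = 3.43e-07) and 2.06-fold higher in aPVAT of cKO (1.04, SE 0.145, adjusted p = 2.30e-05). The genotype difference was −0.021 in tPVAT (95% interval −0.31 to 0.27, adjusted p = 0.945) and −0.40 in aPVAT (−0.70 to −0.09, adjusted p = 0.251).

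Macrophage markers moved with Cfp between depots. The summed level of 8 macrophage markers was 317 to 361 CPM in tPVAT controls, 271 to 363 in tPVAT cKO, 556 to 730 in aPVAT controls and 387 to 580 in aPVAT cKO. All 8 markers were called higher in aPVAT of controls and 7 of 8 in cKO. Cfp relative to this sum was 0.042 to 0.0449 in tPVAT controls and 0.056 to 0.0652 in aPVAT controls. This ratio leans on Lyz2, the largest of the 8 markers. Lyz2 was at 169 CPM of a mean sum of 333 CPM in tPVAT controls, and at 348 of 640 CPM in aPVAT controls. The part of macrophages in the difference of Cfp was not tested. Neutrophil markers, another myeloid source, summed to at most 12.6 CPM in any library, with Ly6g at no more than 0.0398 CPM.

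In the comparison of depots in controls, 29.3% of all genes were called higher in aPVAT and 27.3% lower, so that a single call there says little. All 8 of the complement genes were called higher, and their median log2 difference was 1.66, beside 0.04 for all genes. In cKO 27.2% of all genes were called higher, and 6 of the 8 were, with a median of 1.02 beside 0.04. Between tPVAT cKO and aPVAT control 30.2% of all genes were lower in tPVAT cKO, as were all 8 (median −1.26, beside −0.04).

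**Figure D2:**
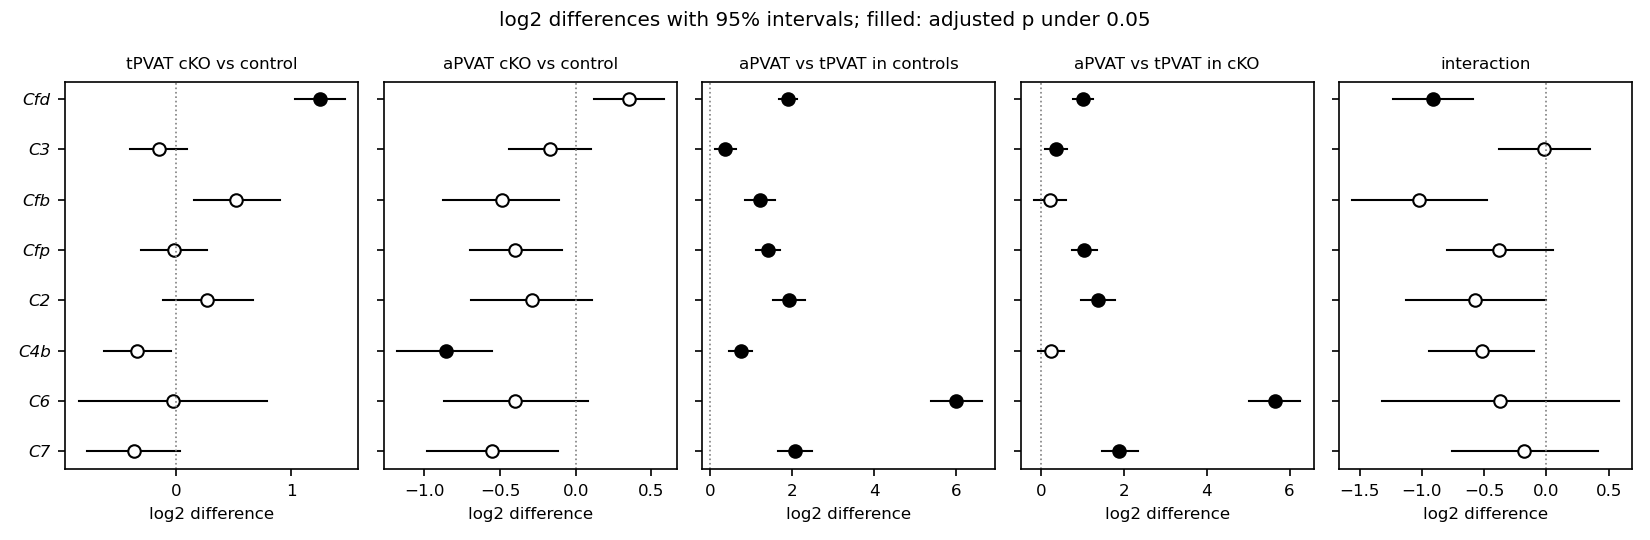
Log2 differences (horizontal axes, separate scale for each panel) of the 8 genes with 95% intervals of the edgeR model in 5 comparisons. Filled points had an adjusted p under 0.05: Cfd in tPVAT, C4b in aPVAT, all 8 between depots in controls, 6 in cKO, and Cfd in the interaction (aPVAT effect minus tPVAT effect).

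Of the classical and lectin pathway, C2 encodes the protease of the C3-cutting enzyme. It stood at 6.63, 9.24, 6.78 and 5.53 CPM in tPVAT controls and at 7.17, 10.9, 9.49 and 6.48 CPM in tPVAT cKO. In aPVAT it stood at 31.3, 20.2, 25.1 and 31.3 CPM in controls and at 20.8, 23.6 and 21.7 CPM in cKO. Every aPVAT library lay above every tPVAT library, and the genotypes overlapped in both depots. C2 was 3.82-fold higher in aPVAT of controls (1.94, SE 0.185, adjusted p = 2.77e-07) and 2.58-fold higher in aPVAT of cKO (1.37, SE 0.191, adjusted p = 2.32e-05).

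C2 and Cfb are neighbours on chromosome 17 (34862604 to 34898265 and 34856374 to 34862518, both on the minus strand), 85 bases apart, and encode related proteases. Their genotype differences had the same signs (C2 0.27 in tPVAT, adjusted p = 0.382, and −0.29 in aPVAT, adjusted p = 0.557), and neither gene passed. C2 per Cfb was 3.15 ± 0.286 in tPVAT controls, 2.64 ± 0.262 in tPVAT cKO, 5.2 ± 1.34 in aPVAT controls and 5.93 ± 0.446 in aPVAT cKO. The depots thus differed more in C2 than in Cfb. Counted as 1 gene with Gm20547, an alternative chosen after the data were seen, the region was higher in aPVAT of cKO (1.13, adjusted p = 7.77e-05). C2 was the larger part of this sum, at 22 CPM against 3.74 CPM for Cfb in aPVAT cKO. The call therefore says little of Cfb alone.

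C4b encodes C4 (ENSMUSG00000073418, chromosome 17, 34728380 to 34743882, minus strand). It was the only one of the 8 called lower with the deletion, in aPVAT. It stood at 368, 256, 236 and 247 CPM in aPVAT controls and at 138, 165 and 155 CPM in aPVAT cKO. In tPVAT it stood at 171, 186, 149 and 153 CPM in controls and at 125, 158, 122 and 115 CPM in cKO. All aPVAT cKO libraries lay below all aPVAT controls and within the range of the tPVAT libraries.

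In aPVAT, C4b fell 1.82-fold, from 277 ± 61.5 to 152 ± 14 CPM (n = 4 and 3; −0.86, SE 0.148, adjusted p = 0.0061). It ranked 99 of 19645 genes by p. In this comparison 0.743% of all genes were called higher and 0.789% lower, and of the 8 complement genes 0 were higher and 1 was lower (median −0.40, beside −0.01 for all genes). At an unadjusted p under 0.05 there were 5 of the 8, beside 12.4% of all genes: Cfd with a higher value, and C4b, Cfb, C7 and Cfp with lower ones. Fitted on the 7 aPVAT libraries alone, the difference was −0.84 and missed the threshold (adjusted p = 0.0664), and without aPVAT control 1, its highest library, it was −0.69 (adjusted p = 0.00541).

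In tPVAT the difference of C4b was −0.34 (SE 0.135, 95% interval −0.63 to −0.05, adjusted p = 0.118). It passed with limma voom and library weights (adjusted p = 0.0109), with tPVAT libraries alone (0.0469), and without tPVAT cKO 2 or aPVAT control 1 (0.0448 and 0.0267). The difference between depots in the effect was not called (−0.52, adjusted p = 0.406). The fall was thus not shown to be particular to aPVAT. Between depots C4b was 1.68-fold higher in aPVAT of controls (0.75, SE 0.135, adjusted p = 0.000211). In cKO it was not called (0.23, 95% interval −0.08 to 0.54, adjusted p = 0.199).

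Of the macrophage markers and of the fibroblast and progenitor markers (8 each) 0 were called between genotypes in aPVAT, with medians of −0.49 and −0.19. The macrophage sum ranged over 556 to 730 CPM among the controls, and over 387 to 580 CPM among the cKO, which overlapped. Fibroblast and progenitor markers summed to 3415 to 4438 CPM in aPVAT controls and 2908 to 3789 CPM in aPVAT cKO, with overlap as well. Thermogenic adipocyte markers (7 genes) fell, with 5 of 7 called lower and sums of 127 to 188 CPM in cKO against 700 to 1193 CPM among the controls. Smooth muscle markers were at mean sums of 2161 and 2179 CPM. The part of these cell types in the fall of C4b was not tested.

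C4a, a near copy of C4b, followed it in every library at 10 to 11.3% of its CPM. Of the 50-base windows in C4b transcripts, 34.6% also occur in C4a, so reads of the 2 genes can be mistaken for each other and the C4a values are uncertain. C4a was at 29.7 ± 6.89 CPM in aPVAT controls and 16.1 ± 1.64 CPM in aPVAT cKO (−0.88, SE 0.158, adjusted p = 0.00792). Leaving out aPVAT cKO 1 ended this call (adjusted p = 0.0594), as did a fit on aPVAT libraries alone (0.0717). Counted with C4a as 1 gene, again an alternative chosen after the data were seen, C4b gave −0.86.

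The terminal pathway held the largest differences between depots among the 8. C6 stood at 0.396, 0.824, 0.299 and 0.344 CPM in tPVAT controls and at 0.59, 0.718, 0.279 and 0.249 CPM in tPVAT cKO, which were 13 to 44 counts per library. In aPVAT it stood at 37.3, 22.5, 28 and 35.6 CPM in controls and at 23.4, 21.2 and 25.7 CPM in cKO, which were 1200 to 3033 counts. The gene was scarce in all 8 libraries of the chest and well above that level in all 7 of the abdomen.

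C6 was 64.4-fold higher in aPVAT of controls (6.01, SE 0.292, adjusted p = 2.37e-10) and 49.8-fold higher in aPVAT of cKO (5.64, SE 0.294, adjusted p = 8.07e-10). It ranked 15 and 12 from the highest log2 difference among 19645 genes in these comparisons. The genotype difference was −0.028 in tPVAT (95% interval −0.85 to 0.79, adjusted p = 0.974), where few counts leave a wide interval. In aPVAT it was −0.40 (−0.87 to 0.08, adjusted p = 0.493).

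C7 was expressed in both depots. It stood at 68.9, 52.6, 49.7 and 56.6 CPM in tPVAT controls and at 52.2, 47, 42 and 34.6 CPM in tPVAT cKO. In aPVAT it stood at 326, 232, 220 and 178 CPM in controls and at 128, 215 and 147 CPM in cKO. Again every aPVAT library lay above every tPVAT library, while the genotypes overlapped within each depot.

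C7 was 4.2-fold higher in aPVAT of controls (2.07, SE 0.195, adjusted p = 2.40e-07) and 3.72-fold higher in aPVAT of cKO (1.89, SE 0.204, adjusted p = 1.48e-06). The genotype differences were −0.37 in tPVAT (95% interval −0.78 to 0.03, adjusted p = 0.228) and −0.55 in aPVAT (−0.98 to −0.12, adjusted p = 0.258). Per kb of exon C7 exceeded C6 in every group, at 21.3 against 0.131 CPM in tPVAT controls and at 89.4 against 8.67 CPM in aPVAT controls. Fibroblast and progenitor markers were also higher in aPVAT, with 6 of 8 called in controls (sums of 1827 to 2360 CPM in tPVAT and 3415 to 4438 CPM in aPVAT controls). Their part in the difference of C7 was not tested.

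The other terminal genes that a pore needs were nearly absent from the RNA. Hc (complement C5) reached at most 0.259 CPM in any library, C8a 0.117, C8b 0.0613 and C9 0.138 CPM. C8g, the lipocalin-like chain of C8, was the exception and fell 1.5-fold in tPVAT cKO (4.35 ± 0.517 to 2.89 ± 0.128 CPM; −0.59, SE 0.115, adjusted p = 0.00313). It was lower in aPVAT than in tPVAT of controls (−1.10, adjusted p = 8.33e-07) and of cKO (−0.55, adjusted p = 0.00198), opposite to C6 and C7. Hepatocyte markers (8 genes) summed to at most 15.3 CPM in any library, led by Alb at up to 8.86 CPM and Serpina1a at up to 4.1 CPM. The other 6 stayed under 1 CPM in every library.

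**Figure D3:**
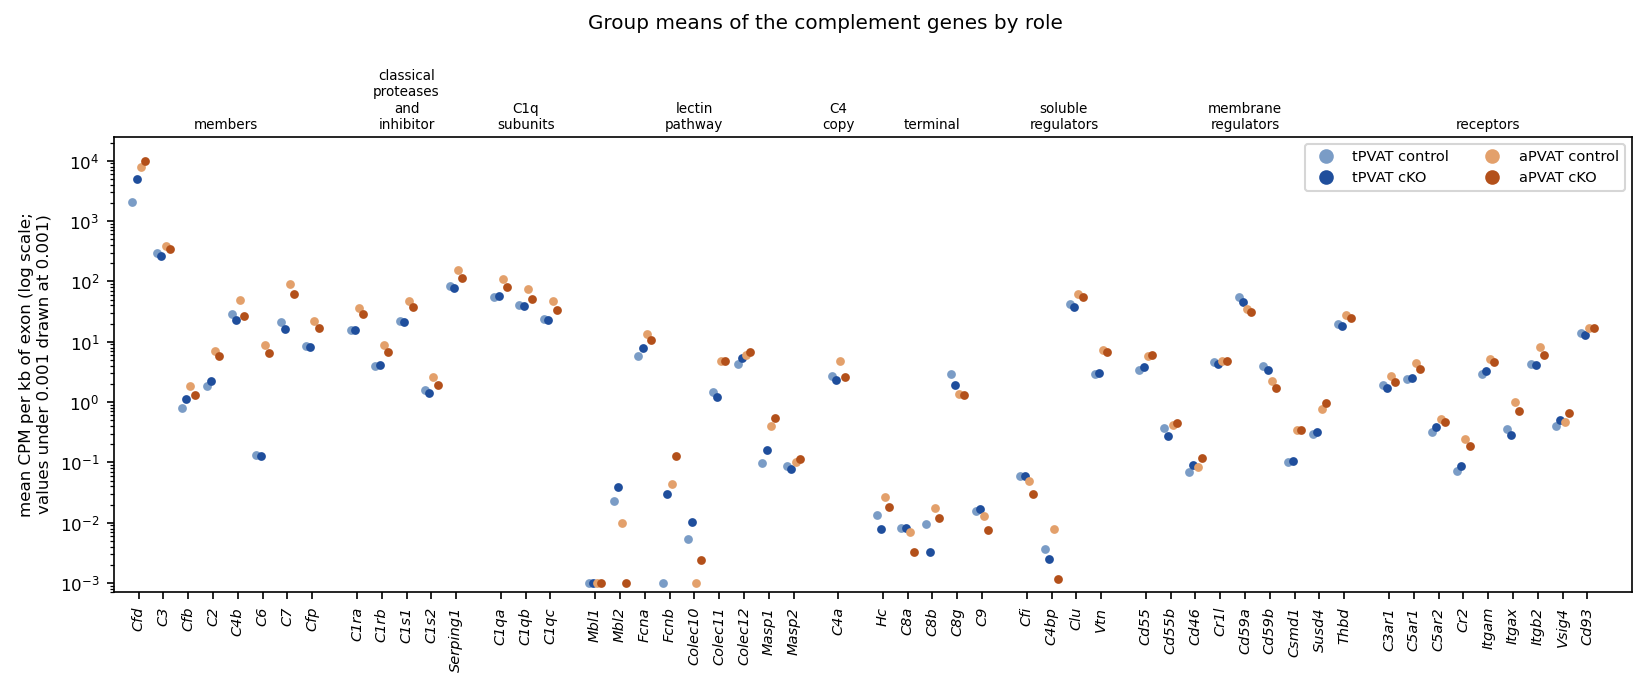
Group means of the 8 genes and of other complement genes by role, in CPM per kb of exon on a log axis (means under 0.001 are drawn at 0.001; no error is drawn). Cfd stands highest at 2088 to 9989 CPM per kb, and C5 (Hc), C8a, C8b and C9 lie among the lowest.

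The other complement genes gave context from a list of 49, of which 39 had enough counts to be tested. In tPVAT 2 were higher and 1 lower in cKO, shares close to or below the 5.44% and 6.61% of all genes given above. In aPVAT 0 were higher and 1 lower, C4a, beside 0.743% and 0.789% of all genes. At an unadjusted p under 0.05 there were 16 of the 39 in aPVAT (2 higher and 14 lower), beside 12.4% of all genes. DESeq2 called 1 higher in aPVAT cKO, Masp1, and 4 lower, C4a and the C1q genes C1qa, C1qb and C1qc, with 258 higher and 348 lower among the 18434 genes it tested. In the interaction edgeR called 0 of the 39 (7 at an unadjusted p under 0.05, beside 8.85% of all genes, and 0 with DESeq2). Between depots in controls 26 were higher and 3 lower in aPVAT, beside 29.3% and 27.3% of all genes, and in cKO 22 were higher and 3 lower, beside 27.2% and 25.4%. The medians of the 39 were −0.02 in tPVAT, −0.17 in aPVAT, 0.80 between depots in controls and 0.50 in cKO.

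The 2 genes called higher in tPVAT cKO were Masp1 and Colec12. Masp1, a protease of the lectin pathway, rose 1.64-fold from 0.945 ± 0.125 to 1.55 ± 0.274 CPM (0.71, SE 0.153, adjusted p = 0.00583), on 36 to 117 counts per library. Colec12, a scavenger receptor of the collectin family, rose 1.26-fold from 36.7 ± 4.24 to 46.1 ± 0.669 CPM (0.33, SE 0.0769, adjusted p = 0.0101). Both were also higher in aPVAT than in tPVAT of controls (2.04 and 0.52), as was Colec11, a soluble collectin (2.41 and 7.71 CPM; 1.67, adjusted p = 4.77e-07). The liver lectins Mbl1 and Mbl2 had at most 7 counts in any library.

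The classical proteases C1ra, C1rb, C1s1 and C1s2 and their inhibitor Serping1 were all higher in aPVAT of both genotypes (5 of 5). Among all genes 29.3% were called higher in controls and 27.2% in cKO. In cKO C1s2 lay close to the threshold, with overlapping libraries (0.44, adjusted p = 0.045). C1s1 was at 69.4 ± 5.08 CPM in tPVAT controls and 148 ± 23.8 CPM in aPVAT controls (1.09, SE 0.112, adjusted p = 6.15e-07), and C1ra was at 46.2 and 109 CPM (1.23, adjusted p = 4.85e-07). The 3 C1q genes, products of macrophages, were higher in aPVAT of both genotypes as well, with C1qa at 57.6 and 115 CPM in controls (2-fold, adjusted p = 3.18e-06). In cKO the C1qb call (0.39, adjusted p = 0.0342) was lost without aPVAT cKO 3, tPVAT cKO 1 or tPVAT cKO 4 (0.192, 0.0685 and 0.0941). The macrophage and fibroblast marker sums given above were higher in aPVAT too, and their part in these differences was not tested.

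Among the regulators the direction was mixed. Clu, which blocks pore assembly in fluid, was 1.48-fold higher in aPVAT of both genotypes, and Vtn, which does the same, was 2.52-fold higher in controls. Csmd1 and Susd4, membrane inhibitors, were 3.51-fold and 2.67-fold higher in aPVAT of controls. Cd59a and Cd59b, which stop the pore at the membrane, were instead lower in aPVAT of controls (−0.64, adjusted p = 6.15e-05, and −0.85, adjusted p = 0.000116). Of 9 receptor genes 7 were higher in aPVAT of controls (29.3% of all genes) and 4 in aPVAT of cKO (27.2% of all genes). Among the 7 were Itgax, a chain of a receptor for C3 fragments (1.49, adjusted p = 1.69e-06), and the receptors C5ar1 (0.91, adjusted p = 0.000102) and C3ar1 (0.54, adjusted p = 0.0011). C3ar1 was not called in cKO (0.30, adjusted p = 0.0584).

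To place each gene among all others, profiles over the 15 libraries were compared as the root mean square difference of centred log2 CPM, over 13413 genes with sufficient expression. C3 and C4b varied too little for this comparison (SD over libraries of 0.269 and 0.466). The genes most like Cfd were Trim14 (0.188), Cadps2 (0.201), Ugt1a6b (0.215), Igf1 (0.217) and Slc22a4 (0.232), against a median of 0.891 over all candidates. Igf1, the growth factor, was at 42.2, 97.3, 139 and 169 CPM in tPVAT control, tPVAT cKO, aPVAT control and aPVAT cKO, the same order of groups as Cfd. These likenesses are descriptions over libraries that share 4 groups.

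Cfp was closest to Tyrobp (0.112), the adaptor of myeloid receptors, and Cd209d (0.115), and Cfb to Cd300a (0.189) and Ms4a7 (0.206), which myeloid cells also express. C2 was closest to Ifi27l2a (0.196), an interferon-induced gene, and Plau (0.219), and C7 to Aldh1a3 (0.214) and Gpnmb (0.225). C6 was closest to the posterior homeobox genes Hoxc10 (0.566) and Hoxa10 (0.712), against a median of 2.99. Hoxc10 was at 0.257 and 0.372 CPM in tPVAT control and cKO and at 22.5 and 23.6 CPM in aPVAT control and cKO.

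**Figure D4:**
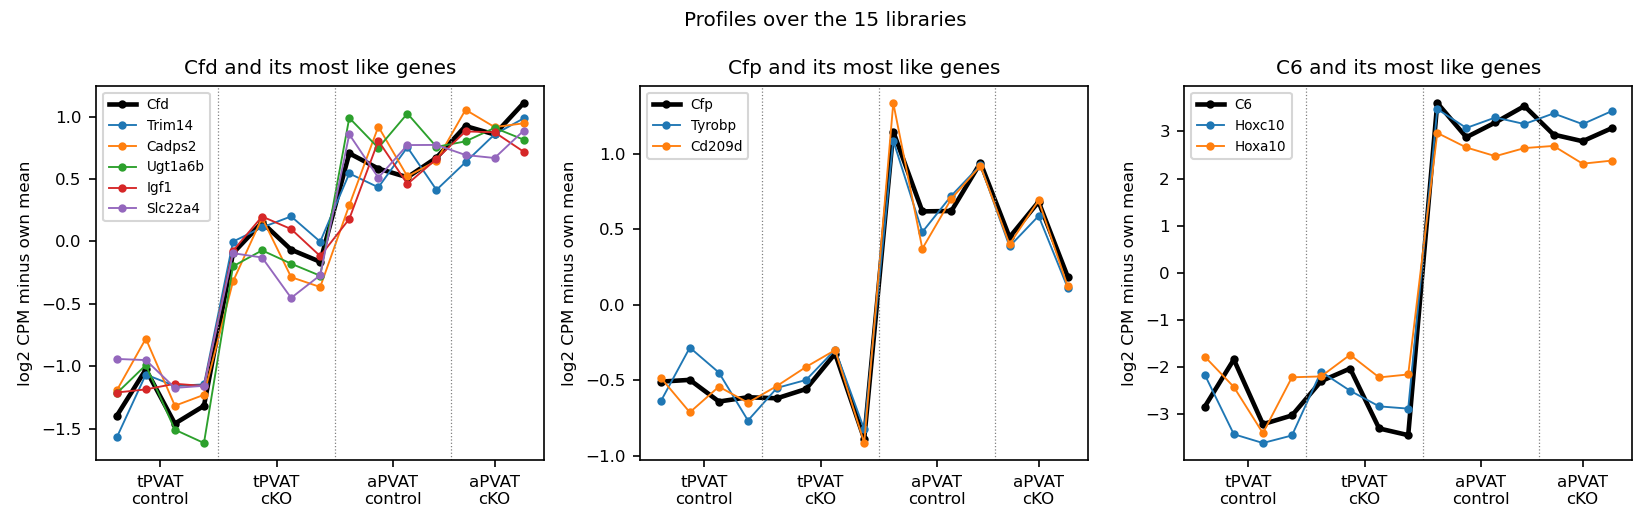
Centred log2 CPM (vertical axis) of Cfd, Cfp and C6 (black) and the genes of most like profile (colours) in the 15 libraries, ordered by group. Lines join libraries only to guide the eye. Cfd and its neighbours step up from tPVAT control to tPVAT cKO. C6 and the 2 Hox genes differ between depots, with no genotype difference called.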

How the data were processed

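Poly(A) RNA of 15 fat samples was sequenced, and the deposited values are the authors' raw counts for each Ensembl gene, whole numbers that sum to a different total in each library. Per the submitters' processing notes the build was mm10, and Salmon, Subread and DESeq2 1.42.1 were used, with no role stated. For the counting tool, annotation and strand, the setting is not given in the sources used here, so overlapping genes may share reads. Symbols and positions came from GENCODE M21 (GRCm38), which held 42468 of 43352 identifiers (97.961%).

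Counts were fitted in R 4.3.3 with edgeR 4.0.16: filterByExpr (minimum count 10, 19645 genes, 99.979% of counts), TMM scaling, 1 mean per group over all 15 libraries, quasi-likelihood F tests, and Benjamini-Hochberg adjustment over all genes. Means are given with SD, and intervals cover 95%. The interaction is the aPVAT effect minus the tPVAT effect. The code was tested on simulated data. No library pair within a group looked like 1 library deposited again (chi-square per degree of freedom at least 9.65).

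The members and gene lists were chosen with earlier results of these data known. Named were all 8 genes, other complement genes past the threshold in a genotype comparison or the interaction, up to 3 per role with the smallest p between depots, genes near 0 that belong to a role, and the genes of most like profile (mean log2 CPM of at least 1). C3ar1, the control value of Cd59b and the cKO value of C1s2 were picked after their values were seen. So were the group means of Igf1, Ugt1a6b, Hoxc10, Lyz2, Fabp4, Pparg, Pnpla2, Retn, Ucp1 and Elovl3. Alternatives were RLE scaling, no mitochondrial genes, no filter, DESeq2 1.42.0, only the compared groups, limma 3.58.1 with library weights, 2 replicate blocks, leaving out each library, and leaving out aPVAT control 2 and aPVAT cKO 4, which are rich in structural RNA.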

Additional observations from a re-analysis of the deposited data

Results flagged for a closer look

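In groups of 4 libraries, 1 library was set far from the rest for 2 of the 29 genes examined (87 groups in all, and chance alone flags about 1 group in 20). C4b was at 368 CPM in aPVAT control 1, and the other 3 aPVAT controls were at 236 to 256 CPM. C4a, the near copy that may share its reads, was at 39.9 CPM in the same library and at 24.7 to 27.3 CPM in the others. Without this library both falls in aPVAT cKO kept their call (C4b −0.69, adjusted p = 0.00541, and C4a −0.71, adjusted p = 0.00898, edgeR).

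The effect of the deletion on Cfd differed between depots by the interaction test (−0.91, SE 0.151, edgeR adjusted p = 0.00622). All 4 tPVAT cKO libraries were above all 4 tPVAT controls, and all 3 aPVAT cKO libraries above all 4 aPVAT controls. The log2 difference was above 0 in both depots, but that in aPVAT missed the threshold (0.35, edgeR adjusted p = 0.165).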

How the results depend on the processing

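Of 68 called results (the 8 genes, other named complement genes and Prdm16) with 1639 alternatives, 1622 kept their direction and call, 17 kept the direction and missed the threshold, and 0 reversed. Of 23 results that were not called, with 555 alternatives, 523 stayed so, 15 passed the threshold and 17 changed sign. Among the 15 was Cfb between depots in cKO when counted with C2 and Gm20547, where C2 was the larger part. The tPVAT and depot differences of Cfd kept their calls throughout (largest adjusted p over alternatives 1.82e-05 for tPVAT and 0.0247 for the interaction). The count of the 8 genes called in tPVAT, 1 with edgeR, was 2 with DESeq2, 2 with only the compared groups, 3 with limma voom weights, 2 with the number as replicate block (Cfb, 0.52, adjusted p = 0.0363), and 1 to 3 when each library was left out. The count in aPVAT, 1, was 2 with DESeq2 and 0 with only the compared groups. The count in the interaction, 1, was 2 with DESeq2 and 1 to 2 when each library was left out. Signs changed for 4 differences, none of them called. The C3, interaction value of −0.02 became 0.0075 without mitochondrial genes, 0.01 with voom weights, 0.05 with the number as replicate block and 0.04 without the 2 libraries with much structural RNA, and ranged from −0.14 to 0.13 when each library was left out. The C6 difference in tPVAT (−0.03) was 0.02 with voom weights and −0.34 to 0.43 when each library was left out. Under the same leaving out, the C7 interaction ranged from −0.43 to 0.01 and the Cfp difference in tPVAT from −0.12 to 0.07. The cause of these changes was not tested. Groups share replicate numbers, and deviations of same-numbered samples had r of −0.222 to 0.169 over all pairs of groups compared. Between the depots of the same genotype, r was −0.03 to 0.165 for same-numbered samples and −0.134 to 0.116 for the others. These ranges overlap, and the numbers were not taken as pairs. With a random block per genotype and number (correlation 0.0217) the counts were 1, 1, 8, 6 and 1 in the 5 comparisons, as reported. Low counts limit C6 in tPVAT.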
